A study of Mus musculus with 6 samples.

Results

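Coenzyme Q synthesis genes were followed in the cochleae of mice with and without Fabp7, a fatty acid binding protein of glia and other cells. The 9 genes named for the pathway were Pdss1, Pdss2, Coq2, Coq3, Coq4, Coq5, Coq6, Coq7 and Coq9. They had 13 probes on the array. Of these, 11 probes, standing for 7 genes, had a raw signal above the 40th percentile of their array on at least 3 of the 6 arrays and were kept, out of 33484 kept probes of 55676. No probe of Pdss1 was analysed here, and the single probe of Coq3 did not pass. Pdss2 was chosen by the measured knockout minus wild-type changes of its probes, which disagreed, and by its place 14.3 Mb from Fabp7. The rest of the pathway was set beside Pdss2. The Pdss2 values are therefore described without a test.

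RNA of whole cochleae was hybridised to 1-colour Agilent arrays. The wild-type group, genotype Fabp7 (+/+), and the knockout group, genotype Fabp7 (-/-), held 3 samples each. All mice were females aged 7 months with no treatment named, and each sample pooled 4 cochleae from 2 mice, so that a group stood for 6 mice. The bony otic capsule was kept and vestibular tissue removed, so bone, marrow, nerve and sensory epithelium were measured together. The sources used here do not give how the Fabp7 allele was made or its strain background.

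Coenzyme Q, or ubiquinone, is a lipid of the inner mitochondrial membrane that carries electrons from complexes I and II and from several other dehydrogenases to complex III. Its long isoprenoid tail is built by an enzyme made of the Pdss1 and Pdss2 subunits, Coq2 joins the tail to a benzene ring made from tyrosine, and the remaining Coq proteins modify the ring in a complex on the membrane. In people, inherited defects of the pathway affect kidney, brain and muscle, and those of COQ6 are known for kidney disease with sensorineural deafness.

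The 75th percentile of raw signal ranged from 581.06 to 677 across arrays and the 40th percentile from 17.2 to 23.7. Across the kept probes, pairs of arrays correlated at 0.988 to 0.994, as a description. Dim signals were higher on wild-type array 1, whose 25th percentile was 6.66, while the other 5 arrays ran from 3.92 to 4.69. Fabp7 itself gave raw signals of 2674, 1554 and 1860 on the wild-type arrays and 10.9, 3.75 and 3.43 on the knockout arrays, so all 6 labels fitted the targeted transcript. Markers of the cochlea were measured, among them Ocm and Otof of hair cells, Esrrb and Kcnq1 of the stria vascularis and S100b of glia. All comparisons used the scaled log2 signal, which is the log2 raw signal minus the log2 of the 75th percentile of its array, and each change is knockout minus wild type with the standard error (SE) of the limma fit.

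Pdss2 makes the side chain together with Pdss1. Its brighter probe, annotated to the RefSeq transcript NM_027772, was lower in knockout, and its dimmer probe, annotated to NM_001168289, was not. The brighter probe read 331, 276 and 262 on the wild-type arrays and 177, 163 and 152 on the knockout arrays. All 3 knockout arrays lay below all 3 wild-type arrays, an order seen in 4.42% of all probes tested, from which nothing is read here since the gene was chosen for it. Wild-type array 1 was the highest. On the scaled log2 scale the probe averaged −1.22 ± 0.16 over the wild-type arrays and −1.88 ± 0.09 over the knockout arrays (SD, n = 3 each), a change of −0.67 ± 0.11 (SE), or 36.9% less signal. Leaving out 1 array at a time gave changes from −0.73 to −0.57.

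The dimmer Pdss2 probe had raw signals of 69.3, 93.7 and 78.2 on the wild-type arrays and 79.2, 77.7 and 74.7 on the knockout arrays. The groups overlapped, and the knockout arrays lay inside the range of the wild-type arrays on the scaled scale, from −3.00 to −2.95 against −3.29 to −2.83. Its change was 0.10 ± 0.12 (SE). Wild-type array 1, the highest for the brighter probe, was the lowest for this one. Both probes passed the signal filter on all 6 arrays, the brighter at percentiles 62.3 to 68.2 of its array and the dimmer at 52.2 to 56.1. With the log2 values of both averaged, the change of Pdss2 was −0.28. Which transcripts each probe can bind was not tested.

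**Figure D1:**
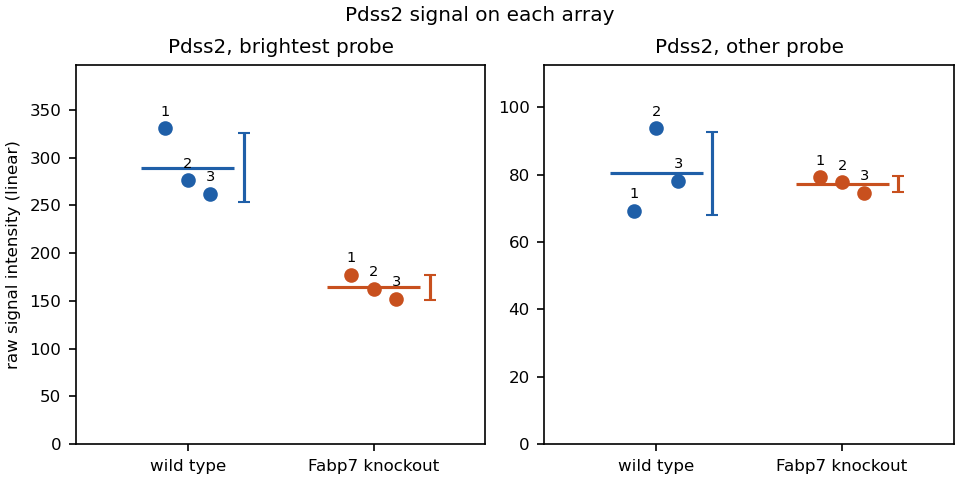
Raw signal of the 2 Pdss2 probes (linear axis from 0) on each array, numbered by replicate, with the mean of each group as a line and its SD as a bar beside it (n = 3). The brighter probe runs from 262 to 331 in wild type and from 152 to 177 in knockout, while the dimmer probe overlaps.

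The distance between the Pdss2 probes was set beside that of other genes as a description. Of 4977 genes with at least 2 kept probes, the changes of the brightest and the next brightest probe differed by a median of 0.10 on the log2 scale in absolute size. For Pdss2 they differed by −0.77, and 53 genes, or 1.06%, Pdss2 included, had a gap at least as wide. On single arrays, the brighter minus the dimmer Pdss2 probe, centred over the 6 arrays, was 0.79, 0.09 and 0.28 on the wild-type arrays and −0.31, −0.40 and −0.44 on the knockout arrays. The groups did not overlap in this measure, with wild-type array 2 nearest to the knockout arrays. Pdss2 was chosen because its probes disagreed, so nothing is read from the width of its gap or from this order. How many other genes show such an order was not counted. In the other members with a pair of kept probes, the gap was −0.07 for Coq2, 0.08 for Coq5 and 0.06 for Coq7.

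Beyond Pdss2, 9 probes of 6 pathway genes could be tested, and none passed. Limma called 0 of all 33484 probes at an adjusted p under 0.05 (0%), and at an unadjusted p under 0.05 it held 1942 probes (5.8%). Of the 9 probes, 0 reached the unadjusted level in the higher direction, beside 3.09% of all probes, and 0 in the lower, beside 2.71%, and their adjusted p-values ran from 0.855 to 0.974. Their changes lay between −0.12 and 0.13, with 95% intervals that reached from −0.33 at the lowest to 0.32 at the highest. The groups did not overlap in 2 of the 9 probes, against 12.3% of all probes tested.

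Coq2 is the transferase that joins the tail to the ring. Its brighter probe had raw signals of 6687, 6244 and 6493 on the wild-type arrays and 6254, 6229 and 5690 on the knockout arrays. Scaled, the arrays overlapped, and the change was 0.05 ± 0.06 (SE). Its other probe stood at 2.79, 2.88 and 2.85 on the wild-type arrays and at 3.06, 2.91 and 2.92 on the knockout arrays on the scaled log2 scale. There the knockout arrays lay just above the wild-type arrays, with a change of 0.12 ± 0.07 and an unadjusted limma p of 0.147.

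Among the enzymes that modify the ring, Coq6, a flavin-dependent hydroxylase, stood at scaled log2 signals of 3.21, 3.10 and 3.19 on the wild-type arrays and 3.32, 3.30 and 3.26 on the knockout arrays. The knockout arrays lay above the wild-type arrays by a small step, a change of 0.13 ± 0.07 (SE) with a 95% interval from −0.04 to 0.29 and an unadjusted limma p of 0.106. The raw signals, 6249, 5701 and 6107 against 6080, 6114 and 5577, overlapped, so the order of the groups rests on the scaling between arrays. Coq5, a methyltransferase, had raw signals of 537, 564 and 573 on the wild-type arrays and 529, 463 and 478 on the knockout arrays by its brighter probe. Scaled, this gave a change of −0.04 ± 0.08, and the other Coq5 probe gave −0.12 ± 0.08, both with overlapping groups.

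Coq7, the hydroxylase of a late step, had raw signals of 2131, 1696 and 2039 on the wild-type arrays and 1859, 1934 and 1590 on the knockout arrays by its brighter probe. Its change was 0.03 ± 0.11 (SE), and the other probe, annotated to a cDNA clone, gave −0.04 ± 0.12. Scaled, wild-type array 2 held the lowest value of the first probe and the highest wild-type value of the second. Coq3, a methyltransferase that acts on the ring at more than one step, gave raw signals of 4.62, 5.06 and 4.03 on the wild-type arrays and 4.13, 3.69 and 3.81 on the knockout arrays. Every one was below its array's 40th percentile, and no change is given for it.

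The last members are partners of the ring enzymes. Coq9, a lipid-binding protein that works with Coq7, was measured by a probe with raw signals of 1326, 1281 and 1310 on the wild-type arrays and 1096, 1247 and 1151 on the knockout arrays. Scaled, the groups overlapped and the change was −0.02 ± 0.07 (SE). A second Coq9 probe had signals from 12.9 to 24.99 and was above the 40th percentile on 2 of 6 arrays, which put it just outside the filter, whereas the dimmer Pdss2 probe was the dimmest inside it. Coq4, a component of the ring-modifying complex, had raw signals of 1566, 1589 and 1582 on the wild-type arrays and 1714, 1531 and 1318 on the knockout arrays. The wild-type arrays lay close together and inside the range of the knockout arrays, with a scaled change of 0.09 ± 0.10.

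**Figure D2:**
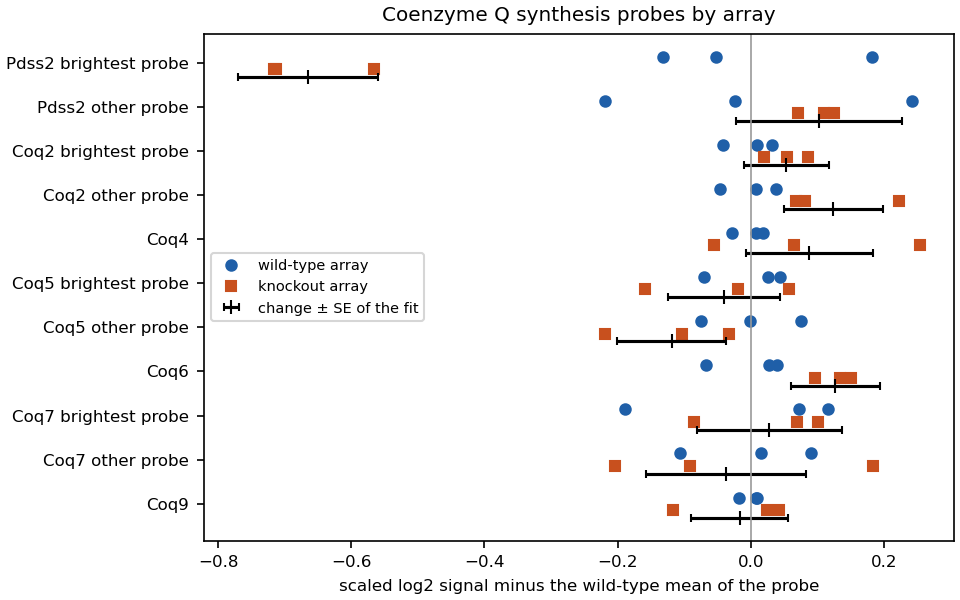
Scaled log2 signal of the 11 kept probes on each array, minus the wild-type mean of the probe, with circles for wild-type arrays, squares for knockout arrays and bars for the fitted change ± SE. The knockout arrays of the brighter Pdss2 probe stand apart on the left, and the fitted changes of the 9 probes of other genes lie between −0.12 and 0.13.

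By the brightest probe of each of the 7 measured genes, the median change was 0.03, with 4 genes above 0 and 3 below. Over all 16143 named genes the median change was also 0.03, and 60.8% lay above 0. Accessory factors had 4 of 6 measured genes above 0 and a median of 0.08, with 1 gene at an unadjusted p under 0.05 in the higher direction, against 2.42% of named genes, and 0 in the lower direction, against 2.3% (4.73% in both). That gene was Coq10b, a lipid-binding protein thought to chaperone coenzyme Q, with raw signals of 571, 548 and 572 on the wild-type arrays and 554, 651 and 591 on the knockout arrays. Its change was 0.23 ± 0.08 (SE), with a limma adjusted p of 0.824, and its other probe gave 0.12 ± 0.08 with overlapping groups. Coq10a, its close relative, was at 0.11 ± 0.07. The kinase-like protein Coq8a was at 0.13 ± 0.10, and its other probe at 0.01 ± 0.24. Hpdl, which in human cells makes the ring precursor, was at −0.20 ± 0.09, with all knockout arrays below all wild-type arrays, as in 4.21% of named genes. Its unadjusted limma p was 0.074.

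Genes that supply isoprenoid units had 10 of 10 measured members above 0, at a median of 0.05. Of these, 1 (10%) was higher at an unadjusted p under 0.05, against 2.42% of named genes, and 0 were called after adjustment. Pmvk, the phosphomevalonate kinase, was at 0.18 ± 0.07 (SE; limma adjusted p = 0.834). Ggps1, which makes geranylgeranyl diphosphate, was at 0.23 ± 0.10, Dhdds, which makes dolichol precursors, at 0.13 ± 0.07, and the kinase Mvk at 0.12 ± 0.11. The groups did not overlap in Pmvk, Ggps1 and Dhdds, against 12.4% of all named genes, and in each the knockout arrays were higher, against 8.18%. The other Pmvk probe gave 0.16 ± 0.07, also without overlap. Groups overlapped in the other kept probes of Ggps1 (0.10 ± 0.07 and 0.08 ± 0.09) and Dhdds (0.09 ± 0.07).

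Dehydrogenases that hand electrons to the quinone had 11 of 14 members above 0 and a median of 0.05. Of the 3 below 0, Chdh, the choline dehydrogenase, lay lowest, with raw signals of 274, 294 and 265 on the wild-type arrays and 185, 193 and 206 on the knockout arrays. All knockout arrays lay below all wild-type arrays, and the change was −0.36 ± 0.09 (SE; limma adjusted p = 0.712). Its other 2 kept probes gave 0.08 ± 0.12 and −0.16 ± 0.15, both with overlapping groups. By brightest probe it was the only one of the 14 at an unadjusted p under 0.05, or 7.14%, against 2.3% of named genes lower at that level. The proline dehydrogenase Prodh was at 0.20 ± 0.10, the quinone reductase Aifm2 at 0.15 ± 0.10 (its other probe at −0.12 ± 0.17) and the succinate dehydrogenase subunit Sdha at 0.10 ± 0.07.

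Complex I, which reduces the quinone, had 10 of 11 measured subunits above 0 at a median of 0.07, led by Ndufa9 at 0.14 ± 0.07 (SE), Ndufs7 at 0.12 ± 0.08, Ndufv1 at 0.10 ± 0.07 and Ndufs3 at 0.11 ± 0.08. Complex III, which oxidises it, had 7 of 9 above 0 at a median of 0.08, with Uqcr10 at 0.14 ± 0.07, Uqcrq at 0.10 ± 0.08, Uqcrh at 0.09 ± 0.07 and Uqcrb at 0.08 ± 0.09. Genes of general mitochondrial content had 8 of 9 above 0 at a median of 0.03. The chaperone Hspd1 was at 0.13 ± 0.08 and the transcription factor Nrf1 at 0.14 ± 0.11. Phb was at 0.09 ± 0.07 (its other probe at −0.06 ± 0.14) and the coactivator Ppargc1a at −0.17 ± 0.10 (its other probe at −0.004 ± 0.09). In these 3 lists 0 genes reached an unadjusted p under 0.05, against 4.73% of named genes. In lists this short nothing is read from that.

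**Figure D3:**
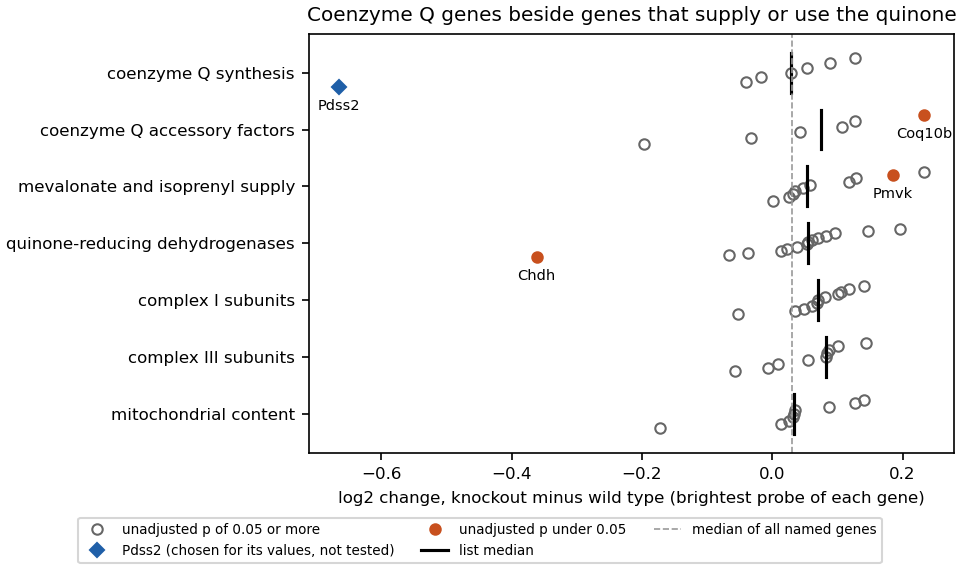
Log2 change, knockout minus wild type, of each gene by its brightest probe in the coenzyme Q list and in lists of genes that supply or use the quinone, with list medians as bars and the median of all named genes as a dashed line. Pdss2 at −0.67 and Chdh at −0.36 lie farthest to the left, and the medians lie between 0.03 and 0.08.

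The start regions of the pathway genes are shown to set the window before Pdss2 beside those of a pair of members whose probes did not pass the test. RefSeq windows of GRCm38.p6, from 250 bases before to 50 after a gene's start, were matched for 8 of the 9 genes. The following 3 windows are on the plus strand, at chr10:43221236-43221535 for Pdss2, chr12:84361718-84362017 for Coq6 and chr8:94838163-94838462 for Coq9. Capitals mark matches on either strand to the letters searched.
Pdss2: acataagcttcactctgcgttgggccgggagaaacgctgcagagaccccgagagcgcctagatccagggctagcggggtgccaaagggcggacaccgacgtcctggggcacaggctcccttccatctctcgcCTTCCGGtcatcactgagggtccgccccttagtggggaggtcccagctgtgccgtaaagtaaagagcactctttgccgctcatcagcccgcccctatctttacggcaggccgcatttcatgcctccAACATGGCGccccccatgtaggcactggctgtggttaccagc
Coq6: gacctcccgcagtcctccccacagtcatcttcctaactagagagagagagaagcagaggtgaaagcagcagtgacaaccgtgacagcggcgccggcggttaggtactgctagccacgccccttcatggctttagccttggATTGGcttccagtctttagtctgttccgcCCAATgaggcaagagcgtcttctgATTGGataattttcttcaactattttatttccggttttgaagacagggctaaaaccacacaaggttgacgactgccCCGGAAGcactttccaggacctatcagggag
Coq9: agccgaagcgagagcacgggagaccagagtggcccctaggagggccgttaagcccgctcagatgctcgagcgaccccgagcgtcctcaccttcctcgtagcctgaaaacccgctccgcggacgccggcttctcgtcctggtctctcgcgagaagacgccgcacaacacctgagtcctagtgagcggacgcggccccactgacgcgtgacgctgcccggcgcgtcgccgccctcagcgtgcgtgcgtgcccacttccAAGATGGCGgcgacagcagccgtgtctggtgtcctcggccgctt
The motifs searched were chosen with the sequences in view, on both strands, and none of the matches shown overlaps another. AANATGGCG, letters known from YY1 sites, was found just after the start in Pdss2 and Coq9 and in 2.38% of 32851 windows. CCGGAAG, letters of GABP sites, was found in Pdss1, Pdss2 and Coq6 and in 8.86% of windows. CCAAT was found in Coq6 and Coq7 and in 37.4% of windows. The NRF1 motif was in a window of Coq3 (4.6% of windows), the E-box CACGTG, which reads the same on both strands, was in Coq4 (7.15%), and TGACGT, of CRE sites, was in 0 members (7.51%). Pdss2 shared the YY1 letters with Coq9 and the GABP letters with Pdss1 and Coq6. A part of these letters in any change was not tested.

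Pdss2 lies on chromosome 10, as does Fabp7, 14.3 Mb away in RefSeq's GRCm38.p6 table. That table served here only for this distance and to find neighbours, since no build is named with the array. The 3 tested named genes nearest on one side were Sobp at 0.01 ± 0.08 (SE), Gm5079 at 0.06 ± 0.08 and Scml4 at −0.52 ± 0.09. On the other side they were Bend3 at 0.06 ± 0.07, Gm9803 at 0.03 ± 0.06 and Mtres1, a mitochondrial transcription rescue factor, at 0.05 ± 0.08. Scml4, a Polycomb-type protein, had raw signals of 1677, 1536 and 1614 on the wild-type arrays and 1074, 1092 and 880 on the knockout arrays. All its knockout arrays lay below its wild-type arrays, and its limma adjusted p was 0.579. The 5 others differed by less than 0.10, with overlapping groups.

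Within 2 Mb of Pdss2, 4 of 35 other named genes (11.4%) were lower at an unadjusted p under 0.05, against 2.3% of named genes, and 0 were higher. Apart from Scml4 these were Foxo3, a stress-response transcription factor, Snx3, a sorting nexin, and Smpd2, a sphingomyelinase, all named after their values were seen. Snx3 was at −0.27 ± 0.08 (SE), and Smpd2 was at −0.26 ± 0.10 with overlapping groups. Foxo3 also had probes that disagreed. Its brighter probe read 184, 212 and 274 on the wild-type arrays and 77.3, 27.8 and 27.2 on the knockout arrays, a change of −2.36 ± 0.43, and its dimmer probe read 32.6, 32.001 and 50.5, then 103, 85.4 and 64.4, a change of 1.29 ± 0.24. Neither passed after adjustment (limma adjusted p = 0.579 for both).

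Between Pdss2 and Fabp7, 2 of 38 genes (5.26%) were lower at an unadjusted p under 0.05 and 0 higher. They were the glutamate receptor Grik2 at −0.55 ± 0.18 (SE) and the connexin Gja1 at −0.28 ± 0.10, both named after their values were seen. Within 20 Mb of Fabp7, with Pdss2 set aside, 12 of 211 genes (5.69%) were lower and 10 (4.74%) higher at that level, against 2.3% and 2.42% of all named genes. The lowest p among them was that of Hkdc1, a hexokinase-like protein on the other side of Fabp7 from Pdss2, also named after its values were seen. It read 329, 354 and 287 on the wild-type arrays and 182, 160.05 and 159.6 on the knockout arrays. All knockout arrays lay below all wild-type arrays, and the change was −0.80 ± 0.11 (SE; limma adjusted p = 0.579). Oit3, on that side too and named likewise, was at −0.64 ± 0.19. It was dim, with raw signals of 36.4, 30.8 and 38.3 on the wild-type arrays and 27.3, 18.2 and 16.9 on the knockout arrays. Knockout arrays 2 and 3 lay just below their 40th percentiles. The median change within 20 Mb of Fabp7 was 0.02, beside 0.03 over all named genes. In a knockout the genes near the target can come from another strain than in the controls, and here such flanking sequence and the loss of Fabp7 cannot be told apart.

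**Figure D4:**
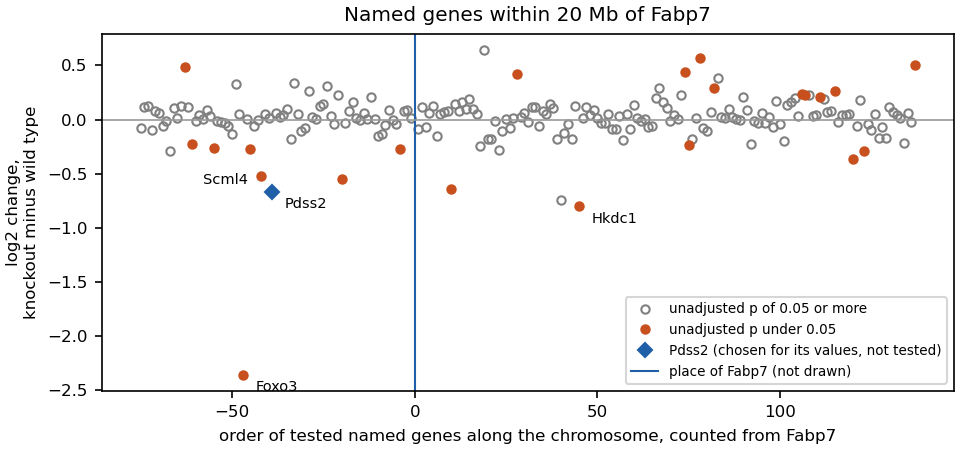
Log2 change of tested named genes within 20 Mb of Fabp7 by the brightest probe of each, in their order along the chromosome counted from Fabp7, which is not drawn. Pdss2 (−0.67), Scml4 (−0.52) and Foxo3 (−2.36) lie on one side of Fabp7 and Hkdc1 (−0.80) on the other.

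The genes whose pattern over the 6 arrays was most like that of the brighter Pdss2 probe were found by the root-mean-square difference of centred log2 signals, as a description. They were Oit1 (0.12), Apoc1 (0.12), Scml4 (0.13), Pof1b (0.13) and Opn1mw (0.13), against a median of 0.38 over 16142 named genes. Oit1 was dim, with raw signals of 26.2, 22.8 and 21.9 on the wild-type arrays and 13.4, 13.0 and 14.9 on the knockout arrays. It passed the signal filter through the wild-type arrays alone, so nothing is read from its place here. Scml4 is also the third tested gene from Pdss2 on the chromosome. The ranking uses the Pdss2 values for which that gene was chosen, so genes lower in knockout lead it by construction. Nothing is read from the ranking or from the place of Scml4 in it. Apoc1, a lipoprotein component, had raw signals of 1641, 1487 and 1158 on the wild-type arrays and 896, 929 and 831 on the knockout arrays, a change of −0.53 ± 0.13 (SE).

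In bulk tissue, fewer cells of a type and less RNA per cell cannot be told apart, so markers of other cells are given beside Pdss2. Adipocyte markers lay mostly below 0, as the brighter Pdss2 probe did, with 7 of 8 measured members below 0, a median of −0.61 and 5 members (62.5%) lower at an unadjusted p under 0.05, against 2.3% of named genes. Ucp1 of brown fat was at −2.79 ± 0.81 (SE), the carboxykinase Pck1 at −2.45 ± 0.46, Plin1 at −0.81 ± 0.26 and Cidec at −0.73 ± 0.23, while Adipoq was at 0.02 ± 0.13. None of the 5 passed after adjustment. Over the 8 measured markers, the mean centred signals were 0.65, 0.31 and 0.45 on the wild-type arrays. On the knockout arrays they were −0.87, −0.22 and −0.32. The log2 of the summed scaled signals of the 8 ran from 3.28 to 3.59 in wild type and from 3.07 to 3.33 in knockout, and overlapped. No measured marker had a change of exactly 0, Lep did not pass the signal filter, and the part of adipocytes in the Pdss2 values was not tested.

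Macrophage markers were below 0 in 10 of 10 members, at a median of −0.10, with 2 of them, C1qa and Cx3cr1, lower at an unadjusted p under 0.05 (20% against 2.3% of named genes). Their summed log2 level ran from 6.49 to 6.72 in wild type and from 6.47 to 6.57 in knockout. Skeletal muscle markers, from a tissue rich in coenzyme Q, had 8 of 8 measured members above 0, with knockout array 2 at a mean centred signal of 2.85 and the others between −1.13 and 0.48. Without that array the median change of the coenzyme Q genes was 0.02. Hair cell markers had 8 of 9 above 0 at a median of 0.16 and stria vascularis markers 7 of 9 at 0.17, each with 2 higher at an unadjusted p under 0.05 (22.2% against 2.42% of named genes). The groups did not overlap in 2 of the 9 hair cell markers and 5 of the 9 stria markers, against 12.4% of named genes. Red cell precursor markers had 4 of 8 above 0 at a median of −0.01, and markers of glia and neurons 3 of 8 at −0.04. Of the glia and neuron markers, 1 was higher at an unadjusted p under 0.05 (12.5% against 2.42% of named genes). It was S100b at 0.26 ± 0.08 (SE), which lies within 20 Mb of Fabp7. Its groups did not overlap, as in 12.5% of that list and 12.4% of named genes. The part of these cells in any pathway value was not tested.

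**Figure D5:**
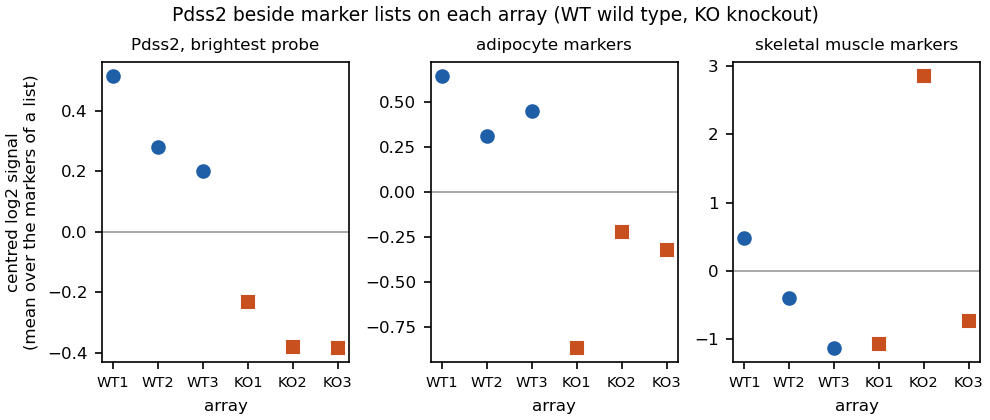
Centred log2 signal of the brighter Pdss2 probe and the mean centred log2 signals of adipocyte and skeletal muscle markers on each array (WT wild type, KO knockout; each panel has its own axis). The adipocyte values run from 0.31 to 0.65 in wild type and from −0.87 to −0.22 in knockout, and the muscle markers are highest on knockout array 2 at 2.85.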

How the data were processed

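Per the file headers and the labels, the authors deposited raw intensity on a linear scale (Cy3 label), 1 value per probe and array. Agilent Feature Extraction 10.7 was used, per the submitters' processing notes. The sources used here do not give any background treatment, and there were no detection marks. The deposited log2 matrix equals the log2 raw signal minus a constant per array, with column medians from −3.69 to −3.55, and was used as an alternative.

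Groups came from the genotype labels. Gene names came from the platform table, updated by gene ID to RefSeq, where 30625 probes had 1 gene, 25051 none and 0 several, and 30331 were found. Log2 raw signals minus the log2 of the array's 75th percentile were fitted with limma 3.58.1 in R 4.3.3 (lmFit, eBayes, no covariates), two-sided, on 33484 probes above the 40th percentile on at least 3 of 6 arrays, with Benjamini-Hochberg adjustment over all of them and a threshold of 0.05. The probe of highest mean stood for a gene in list counts. The fit was tested on simulated data.

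Named were every member probe, up to 4 members of each other list by lowest p, the 3 genes nearest Pdss2 on each side, and the 5 genes most like it. Members and lists (coenzyme Q accessory factors, isoprenyl supply, dehydrogenases, complexes I and III, mitochondrial content and 7 cell types) were chosen with earlier results of these data known. Array signals carry no counts, so the number of arrays limits the precision: the median half-width of a 95% interval was 0.28 on the log2 scale. Alternatives covered scaling, source, filter, probes, spread, replicate block, threshold and each array left out. Samples pooled separate mice, so p-values measure the spread between such pools.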

Additional observations from a re-analysis of the deposited data

How the results depend on the processing

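For the 9 tested pathway probes, 139 of 147 values under an alternative kept their direction and stayed above the threshold, with a lowest limma adjusted p of 0.369. Many of these values could not change direction. Other signal filters, raised dim signals, 1 probe per gene, the intensity trend and the replicate block left the fitted changes of these probes as they were. The deposited matrix differs by a constant per array and gave nearly the same changes. The count is therefore no measure of how firm the directions are. The values that turned sign were all small. Averaging the probes of each gene put Coq7 at −0.0044, and array weights put Coq9 at 0.0183. With 1 array left out, the brighter Coq7 probe ranged from −0.0660 to 0.0860 (turned without wild-type array 2 and knockout array 2, at −0.0660 and −0.0083), its other probe from −0.15 to 0.05 (0.0083 and 0.0468 without the same arrays), the brighter Coq5 probe from −0.0884 to 0.0198 (0.0198 without knockout array 2) and Coq9 from −0.0466 to 0.0337 (0.0337 without knockout array 1). In every setting run, 0 of these probes reached an unadjusted p under 0.05. The median change of the pathway genes ranged from −0.03 (without wild-type array 2) to 0.07 with 1 array left out. The brighter Pdss2 probe was at −0.28 with the mean of both probes, which by construction takes in the other probe, and otherwise between −0.73 and −0.57. The dimmer ranged from −0.01 (without wild-type array 1) to 0.22.

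Of all probes, limma called 0, against 2 with quantile normalization (Fabp7, Acsm3), 4 with array weights (Slco1b2, Fabp7, Acsm3, Dupd1), and 1, Fabp7, each with signals raised to the 40th percentile, with an intensity trend and at an adjusted p under 0.1. With 1 array left out the calls ranged from 0 to 2: Gdpd3 and an unnamed probe without wild-type array 2, an unnamed probe without wild-type array 3, and Fabp7 without knockout array 1. The cause was not tested. At an unadjusted p under 0.05 there were 4691 probes with array weights and 1942 without. The replicate block called 0 probes and held 1465 at an unadjusted p under 0.05. Deviations of same-numbered arrays from their group means correlated at −0.14, −0.04 and −0.16, and those of other pairs at −0.0025 to 0.15. With 3 arrays per group these values cannot decide whether the numbers pair the samples, and the labels used do not say. Normexp background correction and a slide or scan block were not run: no column of the tables used gives them.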
